A study of Mus musculus with 12 samples.

Results

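The S100 genes described here, S100a4, S100a6, S100a10, S100a11 and S100a13, encode small proteins with EF-hand calcium-binding loops and are expressed by lymphocytes. They were 5 of the 56748 gene IDs counted in RNA sequencing of natural killer (NK) cells, innate lymphocytes that kill infected and malignant cells. The set was chosen by name, with S100a8 and S100a9, the abundant S100 genes of neutrophils, left out. It was selected from earlier results of these same libraries, in all 3 comparisons below, so the values are a description and carry no test.

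NK cells had been sorted from mouse lymph nodes, and 12 libraries fell into 3 groups of 4. Tumor-free nodes came from C57BL/6J mice. The lymphatic and hematogenous groups came from tumor-bearing nodes of a diffuse large B cell lymphoma model in which the tumor had spread through lymphatic vessels or through blood vessels, respectively. Genotype, age, the lymphoma cells and the markers used for the sort were not given in the sources used here, and neither was whether a library pooled animals. The labels number the libraries of a group without naming separate animals, so the error below measures the spread between libraries, which may be technical.

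Most S100 proteins work as dimers. Binding of calcium opens a surface that docks onto target proteins, among them annexins and nonmuscle myosin, and couples calcium signals to the membrane and the cytoskeleton. S100A10 is the exception that no longer binds calcium and stays in its open form, joined to annexin A2. In lymphocytes, S100A4, S100A6, S100A10 and S100A11 transcripts are commonly more abundant in effector and memory cells than in naive cells. All 5 genes lie on mouse chromosome 3. In the RefSeq gene order S100a4 and S100a6 are separated by 1 protein-coding gene, S100a5, and S100a11 and S100a10 are direct neighbours. Between S100a6 and S100a11 there are 59 protein-coding genes, and between S100a13 and S100a4 there are 4.

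Promoter windows of S100a4 and S100a6, which were low in both tumor models, and of S100a11, which was low in the hematogenous model, are shown for their sequence. A window was held for 4 of the 5 genes. It covers the 250 bases before the gene start on the plus strand, from RefSeq with the build GRCm38.p6, written 5′ to 3′. Capitals mark 3 motifs that were searched on both strands: a TATA box (TATAAA), a GC box (GGGCGG) and an AP-1 site (TGANTCA). None of the matches overlapped another motif.
S100a4: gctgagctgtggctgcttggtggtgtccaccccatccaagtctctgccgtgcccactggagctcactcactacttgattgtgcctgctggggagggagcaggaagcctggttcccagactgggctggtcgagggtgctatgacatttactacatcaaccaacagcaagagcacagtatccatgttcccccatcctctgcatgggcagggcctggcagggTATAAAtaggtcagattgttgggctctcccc
S100a6: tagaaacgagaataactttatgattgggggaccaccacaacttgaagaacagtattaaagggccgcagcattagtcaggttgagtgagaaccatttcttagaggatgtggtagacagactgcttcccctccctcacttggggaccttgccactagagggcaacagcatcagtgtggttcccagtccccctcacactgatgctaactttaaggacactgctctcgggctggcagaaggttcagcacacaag
S100a11: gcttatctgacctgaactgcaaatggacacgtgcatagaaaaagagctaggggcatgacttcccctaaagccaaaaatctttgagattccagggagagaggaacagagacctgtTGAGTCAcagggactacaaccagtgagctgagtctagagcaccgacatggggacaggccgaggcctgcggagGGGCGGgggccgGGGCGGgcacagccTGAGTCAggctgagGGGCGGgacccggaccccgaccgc
S100a4 held 1 TATA box, starting at −31 from the gene start. S100a11 held 3 GC boxes and 2 AP-1 sites. None of these letters occurred in the windows of S100a6 or S100a13. Of 32851 windows of this length over all genes, 12.4% held the TATA letters, 32.7% the GC box and 6.75% the AP-1 letters. The sequence is 57.2% G and C for S100a4, 50.0% for S100a6 and 60.0% for S100a11, against a median of 52.4% over all windows. A match is a description of letters, not a measured binding site.

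Libraries held 6654215 to 43494812 gene counts, with 6654215 to 23674960 in the tumor-free, 17672832 to 43494812 in the lymphatic and 10087837 to 19625766 in the hematogenous group. Values below are CPM, gene counts divided by library size after TMM scaling, which corrects the size for the makeup of the RNA. A gene is called where edgeR's quasi-likelihood test gives a Benjamini-Hochberg adjusted p under 0.05 over the 16016 genes tested. All 5 S100 genes passed the filter on low counts. NK identity genes were high in every library, with a summed level of 11329 to 18994 CPM over 14 genes. In a bulk library, fewer cells of a type and less RNA per cell cannot be told apart.

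The 5 genes were lower in the hematogenous group than in the tumor-free group, by 1.76-fold (S100a13) to 3.16-fold (S100a4). S100a4 and S100a6 were also lower in the lymphatic group. S100a10, S100a11 and S100a13 stood near the tumor-free level there and were lower in hematogenous than in lymphatic libraries. By these calls the genes showed a pair of patterns, one low in both tumor models and one low in the hematogenous model. The difference between the patterns was not tested, and the lymphatic call of S100a6 was lost in several alternatives given below.

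S100a4, known as metastasin, binds nonmuscle myosin heavy chain and is linked to cell migration. In tumor-free replicates 1 to 4 it stood at 44.8, 75.5, 25.3 and 37.1 CPM. Lymphatic libraries held 18.8, 16.4, 12.6 and 22.3 CPM, and hematogenous libraries 9.55, 11.6, 20.0 and 16.4 CPM. Every library of a tumor model lay below every tumor-free library, and the tumor models overlapped each other. The mean was 45.7 ± 21.4 CPM (SD, n = 4) in tumor-free, 17.5 ± 4.08 in lymphatic and 14.4 ± 4.7 in hematogenous libraries. Against tumor-free the log2 fold change was −1.37 (SE 0.301) in the lymphatic and −1.66 (SE 0.306) in the hematogenous group. Between the models it was −0.29 (SE 0.298), within its error. Tumor-free replicate 2 was the highest library, and the lymphatic difference was −1.06 without it and −1.23 without lymphatic replicate 3, each then no longer called.

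S100a6, or calcyclin, binds CacyBP/SIP and several annexins and is high in growing and moving cells. Its tumor-free levels were 158, 220, 102 and 158 CPM. The lymphatic libraries stood at 107, 105, 76.0 and 100 CPM and the hematogenous libraries at 58.6, 80.3, 71.0 and 75.9 CPM. Tumor-free replicate 3, the lowest of its group, fell inside the range of the lymphatic libraries, while all hematogenous libraries lay below the tumor-free ones. Means were 160 ± 48.3 CPM in tumor-free, 97.0 ± 14.4 in lymphatic and 71.5 ± 9.37 in hematogenous libraries. The log2 fold change was −0.71 (SE 0.182) for lymphatic and −1.15 (SE 0.184) for hematogenous against tumor-free, and −0.44 (SE 0.181) between the models. The lymphatic call was lost on leaving out tumor-free replicate 1, 2 or 4 or any single lymphatic library, with a log2 fold change of −0.87 to −0.55 over all libraries left out in turn, and also with the lymphatic and tumor-free libraries fitted alone (−0.76).

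S100a10, also called p11, is the light chain of the annexin A2 heterotetramer at the plasma membrane. Tumor-free libraries held 440, 545, 361 and 403 CPM, and lymphatic libraries held 518, 487, 357 and 504 CPM. Hematogenous libraries held 161, 320, 264 and 230 CPM. The tumor-free and lymphatic groups covered nearly the same range, and every hematogenous library lay below both. Means were 437 ± 78.5, 467 ± 74.3 and 244 ± 66.7 CPM in the tumor-free, lymphatic and hematogenous groups. The log2 fold change was 0.09 (SE 0.176) for lymphatic and −0.84 (SE 0.178) for hematogenous against tumor-free, and −0.94 (SE 0.178) for hematogenous against lymphatic.

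S100a11, or calgizzarin, binds annexin A1 and takes part in membrane repair. It followed S100a10 closely: tumor-free levels were 141, 166, 122 and 128 CPM. Lymphatic levels were 141, 149, 117 and 150 CPM, and hematogenous levels were 54.9, 94.2, 82.8 and 72.3 CPM. No hematogenous library reached the lowest library of another group. The means were 140 ± 19.5, 139 ± 15.1 and 76.1 ± 16.7 CPM in the same order of groups. Against tumor-free the log2 fold change was −0.00 (SE 0.153) in the lymphatic and −0.87 (SE 0.155) in the hematogenous group, and it was −0.87 (SE 0.154) between the models.

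S100a13 takes part in the release of FGF1 and interleukin 1 alpha, proteins that leave the cell without a signal peptide. Tumor-free libraries stood at 51.9, 72.1, 44.2 and 46.2 CPM, and lymphatic libraries at 57.3, 48.9, 39.2 and 51.7 CPM. Hematogenous libraries stood at 24.4, 33.9, 30.8 and 32.1 CPM, below every library of the other groups. The means were 53.6 ± 12.7, 49.3 ± 7.57 and 30.3 ± 4.14 CPM. The log2 fold change was −0.12 (SE 0.185) for lymphatic and −0.82 (SE 0.187) for hematogenous against tumor-free, and −0.70 (SE 0.185) between the models. The call between the models was lost on leaving out lymphatic replicate 1, 2 or 4 or hematogenous replicate 1, 3 or 4, with log2 fold changes of −0.80 to −0.57 over all libraries left out in turn. With the trend of fold change on gene length removed it was −0.42 and not called, and by library size alone −0.60 and not called.

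**Figure D1:**
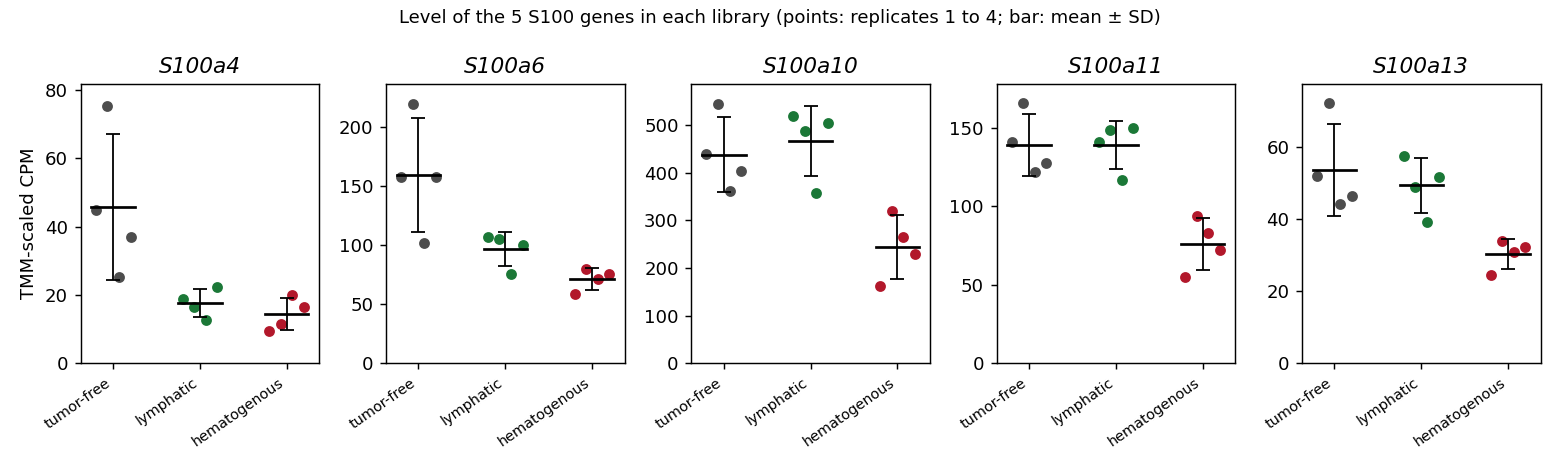
TMM-scaled CPM (vertical axis, from 0) of each S100 gene in every library, by group (horizontal axis); points are replicates 1 to 4 and bars are mean ± SD. S100a4 was lower in both tumor models (means 17.5 and 14.4 against 45.7 CPM), while S100a10, S100a11 and S100a13 were lower in the hematogenous than in the lymphatic libraries (244 against 467 CPM for S100a10).

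As counts, 2 of 5 genes were called lower in the lymphatic group against tumor-free (S100a4 and S100a6), beside 0.418% of all tested genes called lower and 2.32% called higher there. In the hematogenous group against tumor-free, 5 of 5 were called lower, beside 6.87% of all genes lower and 9.52% higher. Between the models 3 of 5 were called lower in the hematogenous group, beside 5.92% of all genes lower and 2.93% higher. The groups did not overlap, with the tumor or hematogenous group lower, for 1 gene in the first comparison (S100a4), all 5 in the second and 3 in the third. Over all tested genes the same held for 2.24%, 8.01% and 11.3%. As these comparisons chose the genes, the counts say nothing further about them. The share of called genes that were higher depended on scaling: 84.7% in the first comparison against 73.2% by library size alone and 65.9% with the gene length trend removed, 58.1% in the second against 39.5% with that trend removed, and 33.1% in the third against 47.4% with DESeq2 size factors, 52.3% with upper-quartile factors and 55.8% by library size alone.

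The median log2 fold change of the 5 genes was −0.12, −0.87 and −0.70 in the 3 comparisons, against 0.08, 0.08 and −0.01 over all genes tested. S100 transcripts are short, and short transcripts as a whole were lower in the hematogenous group. The median for 2989 genes under 1500 exon bases was −0.15 against tumor-free and −0.22 against lymphatic, and for 7150 genes of at least 4000 exon bases it was 0.17 and 0.08. Removing this trend shifted the median of all genes by −0.12 for lymphatic and −0.11 for hematogenous against tumor-free, and left S100a4 at −1.62, S100a6 at −1.08, S100a10 at −0.77, S100a11 at −0.84 and S100a13 at −0.73 in the hematogenous group, all still called. In the lymphatic group against tumor-free the same step moved S100a10 from 0.09 to −0.04, S100a11 from −0.00 to −0.27 and S100a13 from −0.12 to −0.32, none called. There S100a4 went from −1.37 to −1.62 and S100a6 from −0.71 to −0.84, both still called. Between the models the same step moved S100a10 from −0.94 to −0.72 and S100a11 from −0.87 to −0.57, both still called. It also moved S100a13 from −0.70 to −0.42, no longer called, and S100a4 from −0.29 to 0.00.

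**Figure D2:**
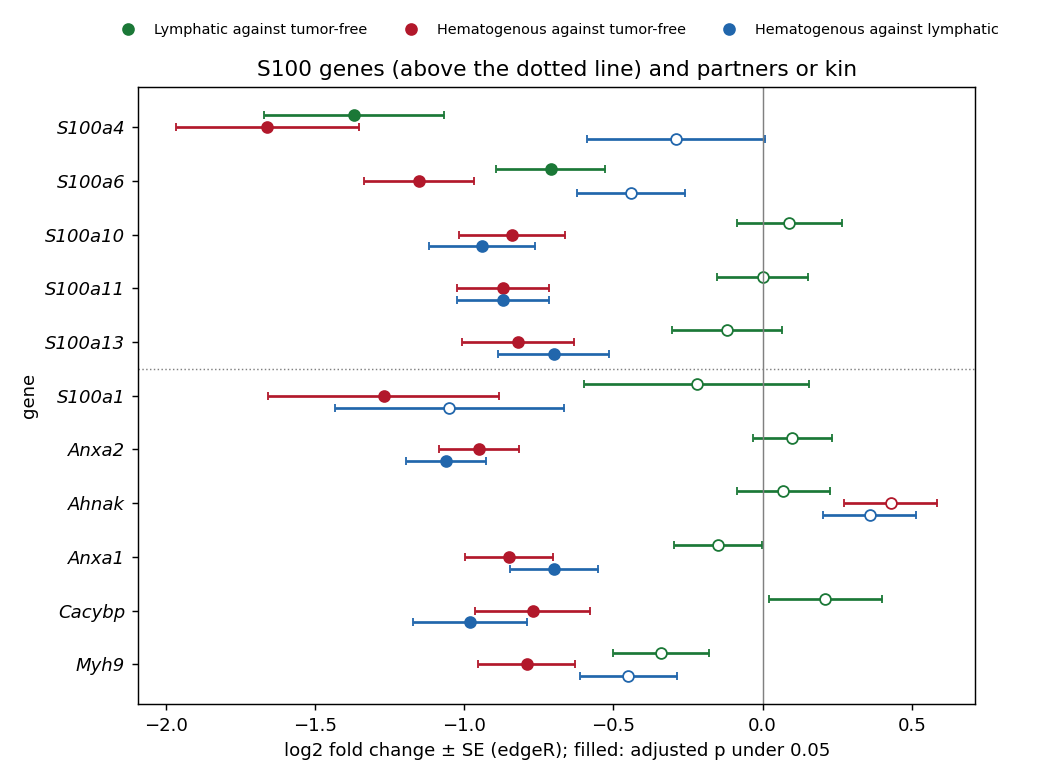
Log2 fold change ± SE (horizontal axis) of the 5 S100 genes, above the dotted line, and of S100a1 and binding partners, below it, in the 3 comparisons; filled points were called. S100a4 and S100a6 lie left of 0 in both tumor models (lymphatic −1.37 and −0.71), S100a10, S100a11 and S100a13 lie at 0.09 to −0.12 in the lymphatic model, and Ahnak lies on the other side in the hematogenous model at 0.43, not called.

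Levels between genes were compared per length of the longest coding transcript. In tumor-free libraries S100a10 was highest at 638 ± 115 CPM per kb, followed by S100a11 at 273 ± 38.2, S100a6 at 218 ± 66.1, S100a4 at 91.7 ± 43.0 and S100a13 at 74.9 ± 17.8. S100a11 and S100a6, and likewise S100a4 and S100a13, did not differ beyond their spread. In lymphatic libraries the order of the last pair changed, with S100a13 at 68.9 ± 10.6 and S100a4 at 35.2 ± 8.18 CPM per kb. S100a10 stood at 681 ± 108, S100a11 at 272 ± 29.6 and S100a6 at 133 ± 19.6 there. Hematogenous libraries had this same order at 356 ± 97.4, 149 ± 32.7, 97.8 ± 12.8, 42.4 ± 5.79 and 28.9 ± 9.44 CPM per kb. S100a13 and S100a4 there stood apart by little more than their spread. The gaps depend on the length used: over all exon bases of a gene, tumor-free S100a10 stood at 361 and S100a6 at 117 CPM per kb, and in lymphatic libraries S100a6 (71.0) and S100a13 (68.9) were nearly level.

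Ratios within a library do not depend on scaling between libraries. S100a11 stood at 30.5% to 33.9% of the S100a10 level in tumor-free, 27.1% to 32.8% in lymphatic and 29.4% to 34.1% in hematogenous libraries. This near-constant ratio held although both genes were lower in the hematogenous group. S100a4 stood at 7.01% to 13.9% of S100a10 in tumor-free and 3.37% to 4.43% in lymphatic libraries, with no overlap, and at 3.62% to 7.57% in hematogenous libraries. S100a6 stood at 28.3% to 40.5%, 19.9% to 21.5% and 25.1% to 36.4% of S100a10 in the same order. Relative to S100a10, S100a6 was lower in every lymphatic library than in any other library. S100a4 was lowest in the lymphatic group too, but hematogenous replicate 2 (3.62%) lay within the lymphatic range and the other hematogenous libraries lay between 5.93% and 7.57%. S100a13 stood at 11.5% to 13.2%, 10.0% to 11.0% and 10.6% to 15.2% of S100a10. Its lymphatic libraries thus also lay below every tumor-free library, by a smaller margin, and overlapped the hematogenous ones.

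**Figure D3:**
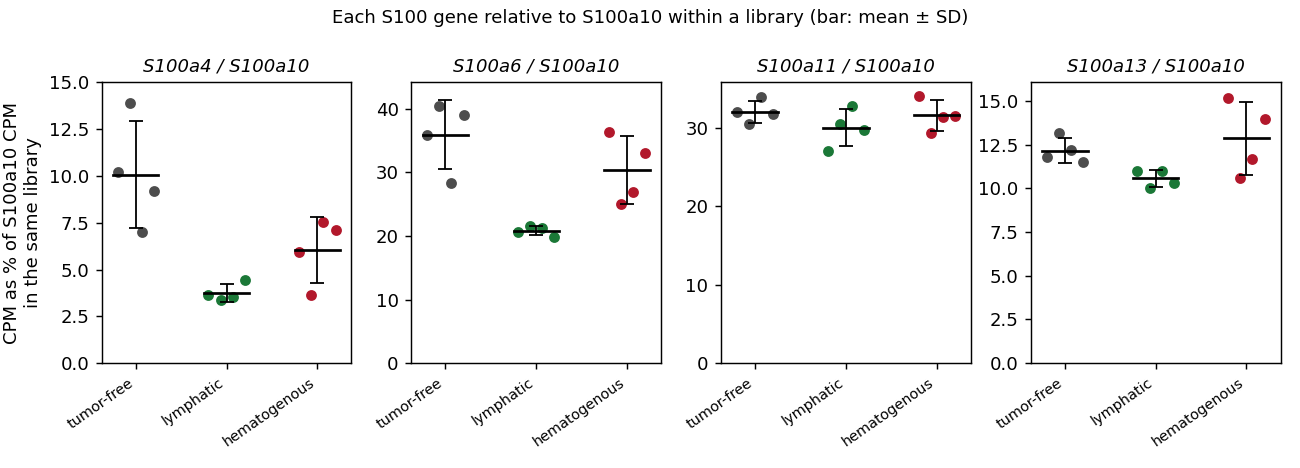
Level of each S100 gene as a percentage of the S100a10 level in the same library (vertical axis, from 0), by group; points are libraries and bars mean ± SD. S100a11 stays at 27.1% to 34.1% in all 12 libraries. S100a4 and S100a6 are lower in every lymphatic than in any tumor-free library (S100a4 3.37% to 4.43%, with 1 hematogenous library at 3.62%). The same holds by a smaller margin for S100a13 (lymphatic 10.0% to 11.0%, tumor-free 11.5% to 13.2%).

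Across the 12 libraries, log2 levels of S100a10 and S100a11 correlated at Pearson's r = 0.99, S100a10 and S100a13 at 0.95, S100a11 and S100a13 at 0.95, and S100a4 and S100a6 at 0.93. Across the patterns the 6 pairs ran from 0.61 for S100a4 with S100a10 and 0.65 for S100a4 with S100a11, through 0.76 for S100a4 with S100a13 and for S100a6 with S100a10 and 0.79 for S100a6 with S100a11, to 0.87 for S100a6 with S100a13. With each group's mean subtracted, pairs within and across the patterns overlapped. Then r was 0.98 for S100a10 with S100a11, 0.88 for S100a10 with S100a13, 0.83 for S100a11 with S100a13 and 0.82 for S100a4 with S100a6, and the 6 pairs across the patterns ran from 0.67 (S100a4 with S100a10 and with S100a11) to 0.89 (S100a6 with S100a13). These values describe 12 libraries that share groups, depth and scaling.

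The genes most like the mean of the 5 S100 genes over the 12 libraries were Tmsb4x, which encodes the actin-binding thymosin beta 4 (r = 0.98), Atp6v0e, a subunit of the proton pump of endosomes (0.98), Tyrobp, the NK adaptor DAP12 (0.97), Srp14, of the signal recognition particle (0.97), and the surface antigen gene Cd52 (0.97). With group means subtracted they were Atp5h (0.96), mt-Rnr2 (0.95), Gpx4 (0.94), Pfdn5 (0.94) and Rpl27a (0.94). S100a4 and S100a6 each had the mitochondrial gene mt-Nd4 among the closest 3 (r = 0.91 and 0.98), S100a4 also Stub1 (0.91) and Cd9 (0.90), and S100a6 also Iscu (0.97) and mt-Co3 (0.95). S100a10 and S100a11 shared Cox8a and Pla2g16 (0.97 each), beside B2m (0.97) for S100a10 and Ndufs5 (0.98) for S100a11. For S100a13 they were Atp5c1 (0.98), Srp14 (0.95) and Atp6v0e (0.95).

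Of 12 other S100 family genes looked for, 11 matched and 3 passed the filter on low counts. S100a1, best known from striated muscle, stood at 10.9, 21.0, 7.97 and 7.05 CPM in tumor-free, 9.30, 13.4, 7.01 and 10.2 in lymphatic and 4.16, 5.25, 3.80 and 6.14 in hematogenous libraries. It fell in the hematogenous group against tumor-free (log2 fold change −1.27, SE 0.388, edgeR adjusted p = 0.0302), with no overlap. Between the models it was −1.05 and not called by edgeR (adjusted p = 0.0993), though these groups did not overlap either. There its unadjusted edgeR p was under 0.05, and voom called it while DESeq2 did not. The edgeR call against tumor-free was lost without tumor-free replicate 2 (−0.83) and without hematogenous replicate 1 (−1.20), 2 (−1.31) or 3 (−1.17). It was also lost with every library thinned to equal depth (−1.11), with voom (−0.87, adjusted p = 0.144) and with the hematogenous and tumor-free libraries fitted alone (−1.29). S100a14 (23, 39 and 24 counts in the tumor-free, lymphatic and hematogenous groups), S100g (20, 16 and 60), S100b (0, 20 and 0), S100a3 (0, 3 and 7) and S100a7a (0, 5 and 2) were near the floor. S100a5, S100a16 and S100z had 0 counts in all 12 libraries, which allows up to 3 counts over the 12, for counting error only. Gm42674, whose exons overlap those of S100a4 on the same strand, had 0 counts, and the S100a11 pseudogene S100a11-ps had 8 counts in 1 library. The 0 does not show that S100a4 lost no reads to this overlap. Reads that fit both genes can fall on the summary line for ambiguous reads, which held 1.55% to 2.12% of a library.

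S100a8 and S100a9, the calprotectin genes of neutrophils, moved the other way from the 5 genes. In hematogenous libraries S100a8 stood at 0, 8.68, 13.1 and 6.79 CPM and S100a9 at 0, 9.44, 21.3 and 5.99 CPM, against 0.117 ± 0.234 and 0.213 ± 0.426 CPM in tumor-free libraries. Hematogenous replicate 1, where both were at 0, had the lowest level of each of the 5 genes among all libraries. These were 9.55 CPM for S100a4, 58.6 for S100a6, 161 for S100a10, 54.9 for S100a11 and 24.4 for S100a13. The same library had the lowest share of reads on genes (55.4%) and the highest shares on no feature (24.6%) and not aligned (14.6%). The part of these shares in its S100 levels was not tested. By edgeR both rose in the hematogenous group against tumor-free (S100a8 5.37, SE 1.62, edgeR adjusted p = 0.0285, S100a9 4.97, SE 1.55, adjusted p = 0.0351). Neither passed with DESeq2 (adjusted p = 0.159 for S100a8 and 0.125 for S100a9) or with voom (adjusted p = 0.09 and 0.12). Both edgeR calls were lost without tumor-free replicate 1, 2 or 4 or hematogenous replicate 2 or 3, and that of S100a9 also without lymphatic replicate 3, with log2 fold changes of 4.29 to 5.35 without these libraries.

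Among binding partners, Anxa2 followed S100a10, to which its protein is joined. Anxa2 stood at 1007, 1038, 833 and 907 CPM in tumor-free, 983, 1251, 864 and 960 in lymphatic and 416, 574, 483 and 479 in hematogenous libraries. It fell in the hematogenous group against tumor-free (−0.95, SE 0.134, edgeR adjusted p = 0.000144) and against lymphatic (−1.06, edgeR adjusted p = 0.000168), and was 0.10 (SE 0.132, adjusted p = 0.828) for lymphatic against tumor-free. Ahnak, whose very large protein binds the S100A10 and annexin A2 complex, did not go with it. Its mean was 3962 ± 348 CPM in tumor-free and 5329 ± 860 in hematogenous libraries (0.43, SE 0.156, edgeR adjusted p = 0.0669). These values are not corrected for the gene length trend. In this comparison the median was 0.17 for genes of at least 4000 exon bases and −0.15 for those under 1500.

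Anxa1, partner of S100A11, fell in the hematogenous group against tumor-free (−0.85, SE 0.148, edgeR adjusted p = 0.000826) and against lymphatic (−0.70, adjusted p = 0.00605). Cacybp, partner of S100A6, went from 57.5 ± 7.00 to 33.6 ± 5.31 CPM (−0.77, SE 0.192, edgeR adjusted p = 0.00994), with 66.5 ± 19.3 in lymphatic libraries. Unlike S100a6, Cacybp was not lower in the lymphatic group (0.21, SE 0.189). Myh9, the nonmuscle myosin heavy chain that S100A4 binds, fell in the hematogenous group (−0.79, SE 0.162, edgeR adjusted p = 0.00283) and stood at −0.34 (SE 0.161, adjusted p = 0.36) in the lymphatic group, where S100a4 was −1.37. Bsg, which encodes basigin, a receptor for S100A9 in other cells, fell as well (−0.71, edgeR adjusted p = 0.00338). Of 14 tested partners and receptors, 0 were called by edgeR in the lymphatic group, where 1 had an unadjusted p under 0.05 and DESeq2 and voom each called 0. In the hematogenous group 5 were lower and none higher, and between the models 5 were lower and none higher. The list medians were 0.04, −0.32 and −0.45.

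Of 10 tested annexins, 0 were called by edgeR in the lymphatic group, where 1 had an unadjusted p under 0.05 and DESeq2 and voom each called 0. In the other comparisons 4 were lower in the hematogenous group (Anxa1, Anxa2, Anxa5 and Anxa6) and 3 between the models (Anxa1, Anxa2 and Anxa6), with none higher and medians of −0.16, −0.43 and −0.35. Anxa6 fell by 0.75 on the log2 scale (SE 0.113, edgeR adjusted p = 0.000315) and Anxa5 by 0.79 (SE 0.156, edgeR adjusted p = 0.00221) in the hematogenous group.

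Of 28 genes of calcium sensing and handling, the wider EF-hand and calcium pathway, 1 was called lower in the lymphatic group, 10 were lower and 3 higher in the hematogenous group, and 6 were lower and 2 higher between the models. The medians were −0.08, −0.21 and −0.10. Efhd2, an EF-hand protein gene, fell in the lymphatic (−0.62, SE 0.138, edgeR adjusted p = 0.0155) and hematogenous group (−1.28, SE 0.140, adjusted p = 2.6e-05). Unlike S100a4 and S100a6, it was also called lower in the hematogenous than in the lymphatic group (−0.66, edgeR adjusted p = 0.00597). Its lymphatic call was lost without lymphatic replicate 1 (−0.55). Lcp1, which encodes the EF-hand actin-bundling protein L-plastin, fell in the hematogenous group (−0.79, SE 0.122, edgeR adjusted p = 0.000364), while Camk4, a calmodulin-dependent kinase gene, rose (1.18, SE 0.346, edgeR adjusted p = 0.0241).

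Genes of motility and the cytoskeleton, often read together with these S100 genes in effector lymphocytes, fell broadly in the hematogenous group. Of 27, 2 were called lower in the lymphatic group, 23 in the hematogenous group and 20 between the models, with none higher and medians of −0.26, −0.85 and −0.60. In the lymphatic group 23 of the 27 nevertheless had a negative log2 fold change. Over 26 of them, 10 had an unadjusted edgeR p under 0.05 there, and DESeq2 called 8 and voom 4. Vim (vimentin) went from 907 ± 12.8 to 359 ± 33.9 CPM in hematogenous libraries (−1.34, SE 0.107, edgeR adjusted p = 1.15e-06), with 708 ± 40.3 in lymphatic libraries (−0.36, adjusted p = 0.0784). Lgals1 (galectin 1) was −1.64 (SE 0.156, edgeR adjusted p = 8.05e-06) in the hematogenous and −0.15 (adjusted p = 0.751) in the lymphatic group, the pattern of S100a10. Crip1, a LIM-domain gene, was −1.12 (SE 0.162, edgeR adjusted p = 0.000196) and −0.49 (adjusted p = 0.122). Emp3, a membrane protein gene, fell in both (−0.60, SE 0.135, edgeR adjusted p = 0.0162 and −0.85, SE 0.136, adjusted p = 0.00043), as S100a4 did, though its lymphatic call was lost without lymphatic replicate 1 (−0.59) or 3 (−0.52). Lgals3 (galectin 3, −0.47, edgeR adjusted p = 0.191) and Klf2, a transcription factor gene of lymphocyte egress (−0.22, adjusted p = 0.202), did not pass in the hematogenous group.

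**Figure D4:**
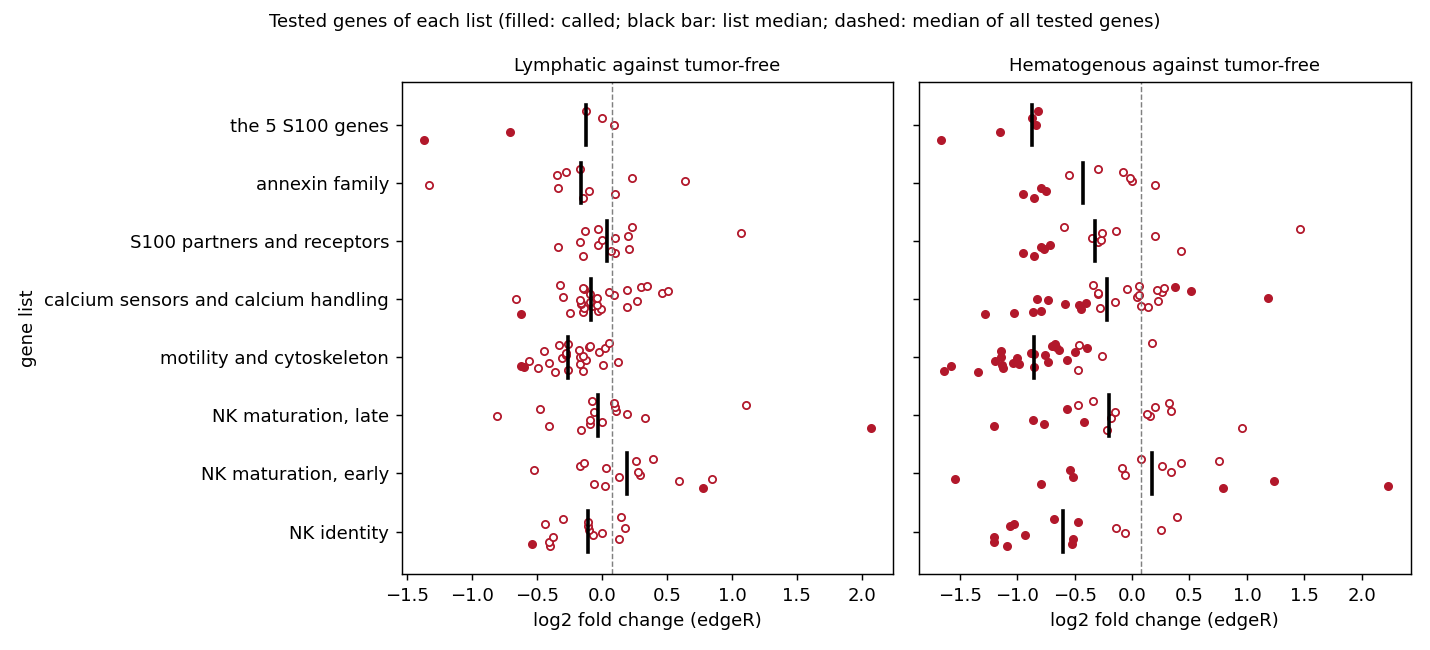
Log2 fold changes (horizontal axis) of the tested genes of each list (rows) in the lymphatic and the hematogenous group against tumor-free; filled points were called, black bars are list medians and the dashed line is the median of all tested genes (0.08). In the hematogenous panel the 5 S100 genes (median −0.87) and the motility list (median −0.85) lie left of the dashed line, with 23 of 27 motility genes called lower.

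Markers of several cell types moved with the groups, and S100 levels stand beside them here. Of 14 NK identity genes 1 was lower in the lymphatic group, 10 were lower in the hematogenous group and 8 between the models, with none higher, and the summed level ran from 16226 to 18994 CPM in tumor-free, 15110 to 18025 in lymphatic and 11329 to 13143 in hematogenous libraries. Ncr1 (NKp46) was −1.09 (SE 0.141, edgeR adjusted p = 7.89e-05) in the hematogenous group, a fall like that of S100a6. T cell markers summed to 943 to 1171, 974 to 1286 and 1198 to 1491 CPM, with 1 of 15 lower in the lymphatic group, 5 higher in the hematogenous group and 3 higher between the models. Cd3e stood at 40.6 ± 24.7 CPM in tumor-free and 101 ± 20.5 in hematogenous libraries (1.30, edgeR adjusted p = 0.0226), a call lost without tumor-free replicate 2 (1.20). Neutrophil markers summed to 0 to 4.03, 1.83 to 4.22 and 3.02 to 57.5 CPM, with Ly6g, Retnlg, Camp, Ltf and Lcn2 at 0 in tumor-free and lymphatic libraries. In hematogenous libraries 1 of the 12, Camp, was at 0. Of 5 tested, edgeR called 3 higher in the hematogenous group against tumor-free, where DESeq2 and voom each called 1. Against lymphatic, edgeR and voom called 3 and DESeq2 0, with no adjusted p from DESeq2 for S100a8 and S100a9. In the lymphatic group edgeR and voom called 0 and DESeq2 1 (1 at an unadjusted p under 0.05). B cell markers summed to 102 to 288, 223 to 674 and 210 to 362 CPM, with 1 of 16, Pax5, higher in each tumor model against tumor-free and 0 called by edgeR between the models (2 at an unadjusted p under 0.05, DESeq2 0, voom 2). Cd79a (1.05, edgeR adjusted p = 0.217) did not pass in the lymphatic group. Macrophage and monocyte markers summed to 1283 to 1487, 969 to 1391 and 727 to 810 CPM. Of 13 tested, 2 were higher in the lymphatic group, and 6 were higher and 1, Ccr2, lower in the hematogenous group against tumor-free. In the hematogenous group the sum and most calls thus went opposite ways, so the sum does not stand for the single markers. Cd14 and Clec4a3 were at 0 in tumor-free libraries, and Lyz2 was −0.06 (SE 0.393) in the hematogenous group. Against tumor-free, the hematogenous group had 1 of 9 dendritic cell, 3 of 6 erythroid and platelet, and 6 of 7 group 2 and 3 innate lymphoid markers called.

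With the mean of neutrophil and macrophage markers as a covariate, S100a11 was the one S100 gene still called in the hematogenous group. S100a4 stood at −1.50, S100a6 at −1.01, S100a10 at −1.05 and S100a13 at −0.77. Their SEs rose to 0.593, 0.341, 0.329 and 0.338, from 0.306, 0.184, 0.178 and 0.187 without the covariate. With the mean of B cell markers as a covariate the lymphatic S100a4 and S100a6 values were −0.88 and −0.42 and not called, while the 5 hematogenous calls held. The myeloid covariate ran from −1.69 to −0.266 in tumor-free and from −0.281 to 1.54 in hematogenous libraries. The B cell covariate ran from −2.36 to 0.451 in tumor-free and, overlapping, from −0.137 to 1.68 in lymphatic libraries. Its lowest value was in tumor-free replicate 2, the library with the highest S100a4 (75.5 CPM) and S100a6 (220 CPM). Both covariates move with the group, so the part of other cells in the S100 levels cannot be told apart from the group. Reads on no annotated feature, 11.4% to 21.1% in tumor-free, 13.9% to 17.4% in lymphatic and 17.5% to 24.6% in hematogenous libraries (medians 13.4%, 15.7% and 21.3%), had their highest median in the hematogenous group as well, and their part in the S100 levels was not tested.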

How the data were processed

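NK cell RNA from 12 libraries was sequenced after poly(A) selection as stranded single-end reads, per the labels' protocols. The authors deposited whole-number counts of reads per gene in 1 table per library. The submitters' processing notes list FastQC 0.11.9, Trimmomatic 0.39, HISAT2 2.1.0, HTSeq 2.0.2 and the build GRCm39. Which annotation release and strand setting the counting used is not given in the sources used here, so overlapping and antisense genes can share reads. Each table held 56748 gene IDs. Its 5 summary lines, which name no gene, entered neither library sizes nor tests, and the line for reads on no feature held 11.4% to 24.6% of a library. Symbols from GENCODE M21 matched 91.8% of IDs, holding 99.5% of counts. Because that release names another build, no coordinates are printed.

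Genes were tested with edgeR 4.0.16 in R 4.3.3: default expression filter by group, TMM scaling and the robust quasi-likelihood F test. The model held the 3 groups and no covariate over 12 libraries, leaving 9 residual degrees of freedom at a biological coefficient of variation of 0.429. P-values were adjusted by the Benjamini-Hochberg method over 16016 genes. Standard errors were derived from the log2 fold change and the F statistic, as their ratio after taking the square root of F. Depth limits precision most in the tumor-free group, and the labels name no molecular identifiers, so counting floors cover counting error only. The script was tested on simulated data. Likeness is Pearson's r of log2 CPM with a prior count of 2, over 9406 genes with a mean of at least 5 CPM.

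The members and the gene lists were chosen with earlier results of these data known. The rule for named genes took the 5 members, and from each list up to the 4 called genes with the smallest adjusted p per comparison. It also took a fixed set of partners, motility genes and markers, and the genes most like the members (5 for their mean, 3 for each). Most of these are printed, and 1 or more are not reported here. Alternatives covered DESeq2 size factors, upper-quartile factors, library size alone, no filter, a filter of 1 CPM in 4 libraries, DESeq2 1.42.0, voom with quality weights in limma 3.58.1, the compared groups alone, a replicate block, B cell and myeloid covariates, equal depth at 6654215 counts, removal of the gene length trend and leaving out each library in turn.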

Additional observations from a re-analysis of the deposited data

Results flagged for a closer look

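The summed level of the 5 S100 genes was 602 CPM in lymphatic replicate 3, set apart from the other lymphatic libraries, which stood at 843, 806 and 827 CPM. Its gap to the nearest library was 0.847 of the range of the group, above Dixon's 95% critical value for 4 samples. Of 18 groups of 4 values checked, this was the 1 that passed, and chance gives such a gap in about 1 of 20 groups. Tumor-free libraries summed to 836, 1079, 655 and 772 CPM and hematogenous libraries to 308, 541, 468 and 426 CPM, so the library stayed above every hematogenous one. By library size alone the group means were 848 in tumor-free, 735 in lymphatic and 447 in hematogenous libraries, against 836 ± 179, 770 ± 113 and 436 ± 97.5 CPM (SD, n = 4) with TMM scaling.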

How the results depend on the processing

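The called differences of the S100 genes kept their direction under every alternative run. Counts of called genes moved with covariates, tools and single libraries. Lymphatic against tumor-free, 439 genes were called, against 729 by DESeq2's test, 223 with the B cell covariate and 153 with the myeloid covariate. Hematogenous against tumor-free, 2625 were called, against 1209 and 706 with these covariates, and between the models 1417, against 2913 by voom. Leaving out single libraries gave 255 to 634, 1760 to 3202 and 620 to 1572. Moves of over 1.5 times came without lymphatic replicate 4 in the first comparison (255) and, in the third, without lymphatic replicate 2 or hematogenous replicate 3 (620 each) or hematogenous replicate 1 (811). The cause was not tested.

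In the lymphatic group S100a4 was no longer called with the B cell covariate (−0.88) or the myeloid covariate (−1.28). S100a6 was not called with voom (−0.53), the compared groups alone (−0.76), the B cell covariate (−0.42) or the myeloid covariate (−0.63). In the hematogenous group the myeloid covariate ended the calls of S100a4 (−1.50, SE 0.593), S100a6 (−1.01, SE 0.341), S100a10 (−1.05, SE 0.329) and S100a13 (−0.77, SE 0.338), each with a larger SE than without it. Between the models S100a13 was not called by library size alone (−0.60), with the myeloid covariate (−0.68) or with the gene length trend removed (−0.42). Leaving out single libraries gave S100a4 −1.57 to −1.06 and S100a6 −0.87 to −0.55 in the lymphatic group, and S100a13 −0.80 to −0.57 between the models. With the myeloid covariate, which holds S100a8 and S100a9 themselves, the hematogenous values of S100a8 (−4.04), S100a9 (−2.31), Kit (−0.04) and Rgs2 (−0.00) reversed. The hematogenous differences from tumor-free stayed called without any single library, at −1.87 to −1.30 (S100a4), −1.32 to −0.95 (S100a6), −1.0 to −0.69 (S100a10), −0.99 to −0.74 (S100a11) and −0.90 to −0.64 (S100a13).

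Among the 89 named genes, those outside the S100 set gave 5684 recomputed values. Of these, 5262 were counted as unchanged, 306 lost and 112 gained a call, and 4 reversed. The 5262 include values that changed sign but were called in neither setting. Such sign changes occurred 172 times over all named genes, 12 of them among the 5 S100 genes. Same-numbered libraries did not deviate together (r from −0.073 to 0.059, 0 of 12 pairs over 0.1), while 1 differently numbered pair reached 0.153. The labels do not say whether a number marks a shared animal, batch or day. With 4 libraries a group this check cannot settle it. A replicate block gave 362, 2518 and 1439 called genes and kept every call of the 5 S100 genes.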

Other observations

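S100 genes rise with maturation in several lymphocyte types, so lists of NK maturation and residency stand beside them. Of 16 late maturation genes, 1 was higher and 0 lower in the lymphatic group, 0 were higher and 5 lower in the hematogenous group, and 1 was higher and 5 lower between the models, with medians of −0.03, −0.20 and −0.18. Gzma (granzyme A) fell from 3198 ± 563 to 1392 ± 364 CPM (−1.20, SE 0.176, edgeR adjusted p = 0.000218) and Tbx21, encoding T-bet, by 0.77 (SE 0.147, edgeR adjusted p = 0.00173) in the hematogenous group. Of 14 early maturation genes, 1 was higher and 0 lower in the lymphatic group, 3 were higher and 4 lower in the hematogenous group, and 2 were higher and 3 lower between the models, with medians of 0.20, 0.17 and −0.01. Il7r, the interleukin 7 receptor gene, rose (2.23, SE 0.221, edgeR adjusted p = 1.35e-05) and Xcl1, a chemokine gene, fell (−1.54, SE 0.328, adjusted p = 0.00704) in the hematogenous group. Of 18 genes of residency and group 1 innate lymphoid cells, 2 were higher and 5 lower in each tumor model against tumor-free and 2 higher and 2 lower between the models, with medians of −0.38, −0.02 and 0.19. Itga1 (CD49a) fell in the lymphatic (−1.41, SE 0.199, edgeR adjusted p = 0.000263) and the hematogenous group (−0.82, SE 0.197, adjusted p = 0.00819). Tnfsf10, Ski and Tgfb3 were also called lower in both tumor models, while Itgb3 and Rgs2 were called higher in both.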
